A study of Mus musculus with 2 samples.

Results

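The 7 genes described here are Mif, its homologue Ddt, and the receptor genes Cd74, Cd44, Cxcr4, Cxcr2 and Ackr3. They were taken by symbol from the 31253 genes listed for both libraries, and all 7 were found in each. The cells were CD45+ cells sorted from brain tumours of C57BL/6 mice that carried GL261, a mouse glioma line grown in the brain. Ibudilast was given by the intragastric route at a dose of 20 mg/kg on 5 occasions a week over 2 weeks, and 1 library was made from those mice. The other library was made from control mice. Its label reads untreated but its protocol describes PBS by the same route, so it is referred to as the PBS library. How many mice were pooled in either library is not stated in the labels. With 1 library per group, every difference below compares these 2 libraries and has no replicate check, and no test was run.

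MIF is a secreted protein that acts as a cytokine and also carries a tautomerase activity. It binds CD74 at the cell surface, where CD44 relays the signal into the cell, and it also engages the chemokine receptors CXCR2, CXCR4 and ACKR3. D-DT, the product of Ddt, is a close relative of MIF that binds CD74 as well. Inside antigen-presenting cells CD74 has another role, as the invariant chain that escorts MHC class II molecules. Ibudilast inhibits phosphodiesterases and MIF, and the counts here are of transcripts only, not of MIF protein or its activity.

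Levels are given as CPM, the unique molecular identifiers (UMIs) of a gene per 1000000 summed UMIs of all cells in a gate. A gate is a set of cells chosen by UMIs of marker genes, none of which is one of the 7 genes. Ratios are ibudilast over PBS. All 95% intervals cover counting error only, not differences from cell to cell, and are therefore too tight for gates in which a handful of cells supplied the UMIs. A ratio is called past the fold when the ibudilast level is at least 25% higher or at least 20% lower, among genes with at least 100 UMIs over both libraries in the gate.

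The PBS library held 8968 barcodes and 119113794 UMIs, and the ibudilast library 8483 barcodes and 82196922 UMIs. After filtering, 7666 and 6654 cells remained, with median depths of 11660 and 7857 UMIs. The 16 immune gates held 5937 PBS cells (77.4%) and 4445 ibudilast cells (66.8%). Macrophage-gated cells made up 3022 of the PBS cells and 1105 of the ibudilast cells, although the labels call the sorted cells lymphocytes. They gave 60.9% of the immune-gate UMIs of the PBS library and 29.97% of those of the ibudilast library. Cells that passed several gates, 943 and 972, and cells in no gate, 742 and 1109, were set aside. The cells of several gates had medians of 20 and 20.5 T marker UMIs and 277 and 236 macrophage marker UMIs. They held 21.9% and 34.2% of the Mif UMIs of kept cells. T cells that also passed the macrophage gate were among these cells of several gates. The T gate levels, ratios and cycling comparisons below therefore leave such T cells out. 2 further gates were oligodendrocyte (28 and 89 cells) and glial or tumour (16 and 39 cells). Their cells passed no T, NK, B, dendritic, neutrophil, mast or basophil, or macrophage gate. They still held macrophage marker UMIs, with medians of 4.5 and 2 in the oligodendrocyte gate and 6 and 3 in the glial or tumour gate. 19 cell barcodes occurred in both libraries. Haemoglobin UMIs differed between the libraries, at 7.51 CPM with PBS and 72.4 CPM with ibudilast over kept cells with fewer than 20 of them. Summed over gates they were 202 and 65.6 CPM in macrophages, 1285 and 1640 CPM in monocytes, 16.8 and 591 CPM in NK cells and 17.9 and 17750 CPM in mast cells or basophils.

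Mif is encoded on chromosome 10 (mm10, 75859353 to 75860240, minus strand; 3 exons in GENCODE M21), and Ddt lies on the same strand at 75771230 to 75773414, 85938 bases away. Cd44 is on chromosome 2 (102811141 to 102901665, minus strand). Cxcr4 (128588199 to 128592293, minus strand), Cxcr2 (74153989 to 74161246, plus strand) and Ackr3 (90203980 to 90216751, plus strand) are all on chromosome 1. The sequence upstream of each start is shown because these neighbouring homologues had different patterns across the gates, and that of Cxcr4 because it had the highest ratio of the 7 genes in the macrophage gate. The sequences are RefSeq's (GRCm38.p6), written 5′ to 3′ on the gene's strand, at chr10:75860278-75860527 for Mif, chr10:75773415-75773624 for Ddt and chr1:128592300-128592549 for Cxcr4, all minus. Capitals mark 3 motifs on either strand: ACGTG (the core bound by hypoxia-inducible factors), GGGCGG (a GC box) and TGACGTCA (a cAMP-response element).
Mif upstream: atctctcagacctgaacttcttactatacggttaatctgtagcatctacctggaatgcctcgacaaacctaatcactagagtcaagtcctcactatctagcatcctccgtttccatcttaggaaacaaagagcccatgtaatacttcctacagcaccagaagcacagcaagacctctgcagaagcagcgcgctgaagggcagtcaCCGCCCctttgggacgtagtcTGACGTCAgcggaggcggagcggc
Ddt upstream: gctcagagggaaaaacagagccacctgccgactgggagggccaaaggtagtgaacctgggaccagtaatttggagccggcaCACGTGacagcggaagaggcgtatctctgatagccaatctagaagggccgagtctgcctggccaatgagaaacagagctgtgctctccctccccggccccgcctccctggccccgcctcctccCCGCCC
Cxcr4 upstream: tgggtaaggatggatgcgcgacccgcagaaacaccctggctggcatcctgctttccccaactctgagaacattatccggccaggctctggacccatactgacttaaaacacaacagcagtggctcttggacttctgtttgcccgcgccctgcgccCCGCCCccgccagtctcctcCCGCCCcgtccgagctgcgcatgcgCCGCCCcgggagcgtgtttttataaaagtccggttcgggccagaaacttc

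The Mif window held 1 TGACGTCA and 1 GC box. TGACGTCA was found in 1.55% of the 250-base windows upstream of 32851 gene starts, and GGGCGG in 32.7%. The Ddt window, 210 bases long, held 1 GC box and a CACGTG, which reads as ACGTG on both strands, and 16.6% of all windows held ACGTG. The Cxcr4 window held 3 GC boxes. These matches are letters in a window and not measured sites.

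Mif was detected in every gate, and among the immune gates its level varied less than that of the receptors. In the PBS library it was highest in the regulatory T gate at 782 CPM (95% interval 725 to 841) and lowest in the mast or basophil gate at 182 CPM (142 to 229), a 4.30-fold range. CD4 T cells (716 CPM), macrophages (677 CPM), microglia (637 CPM) and CD8 T cells (597 CPM) followed the regulatory T gate. Monocytes (430 CPM) stood below transition cells (563 CPM), which passed both the monocyte and the macrophage minimum, and these stood below macrophages. Dendritic cells were low, at 237 CPM in migratory DCs, 251 CPM in cDC2 and 281 CPM in plasmacytoid DCs, whereas cDC1 reached 443 CPM. Of the 15 pairs of gates next to each other in the PBS order, 10 had a ratio whose interval included 1. The other 5 differed by little more than counting error, such as macrophages over microglia at 1.06 (1.002 to 1.13). In the ibudilast library the range was 2.87-fold, from 265 CPM in cDC2 to 762 CPM in microglia, and the order of the 16 gates correlated with the PBS order (Spearman rho 0.83 over gates, a description).

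Among whole gates, the highest Mif levels lay outside the immune ones. The glial or tumour gate had 1556 CPM (1456 to 1660) with PBS and 1514 CPM (1421 to 1611) with ibudilast, and the oligodendrocyte gate 1204 and 1151 CPM. These levels rest on 16 and 39 cells, and on 28 and 89 cells, so they describe few cells. The plot of levels by gate shows that the libraries lay close together within most gates.

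**Figure D1:**
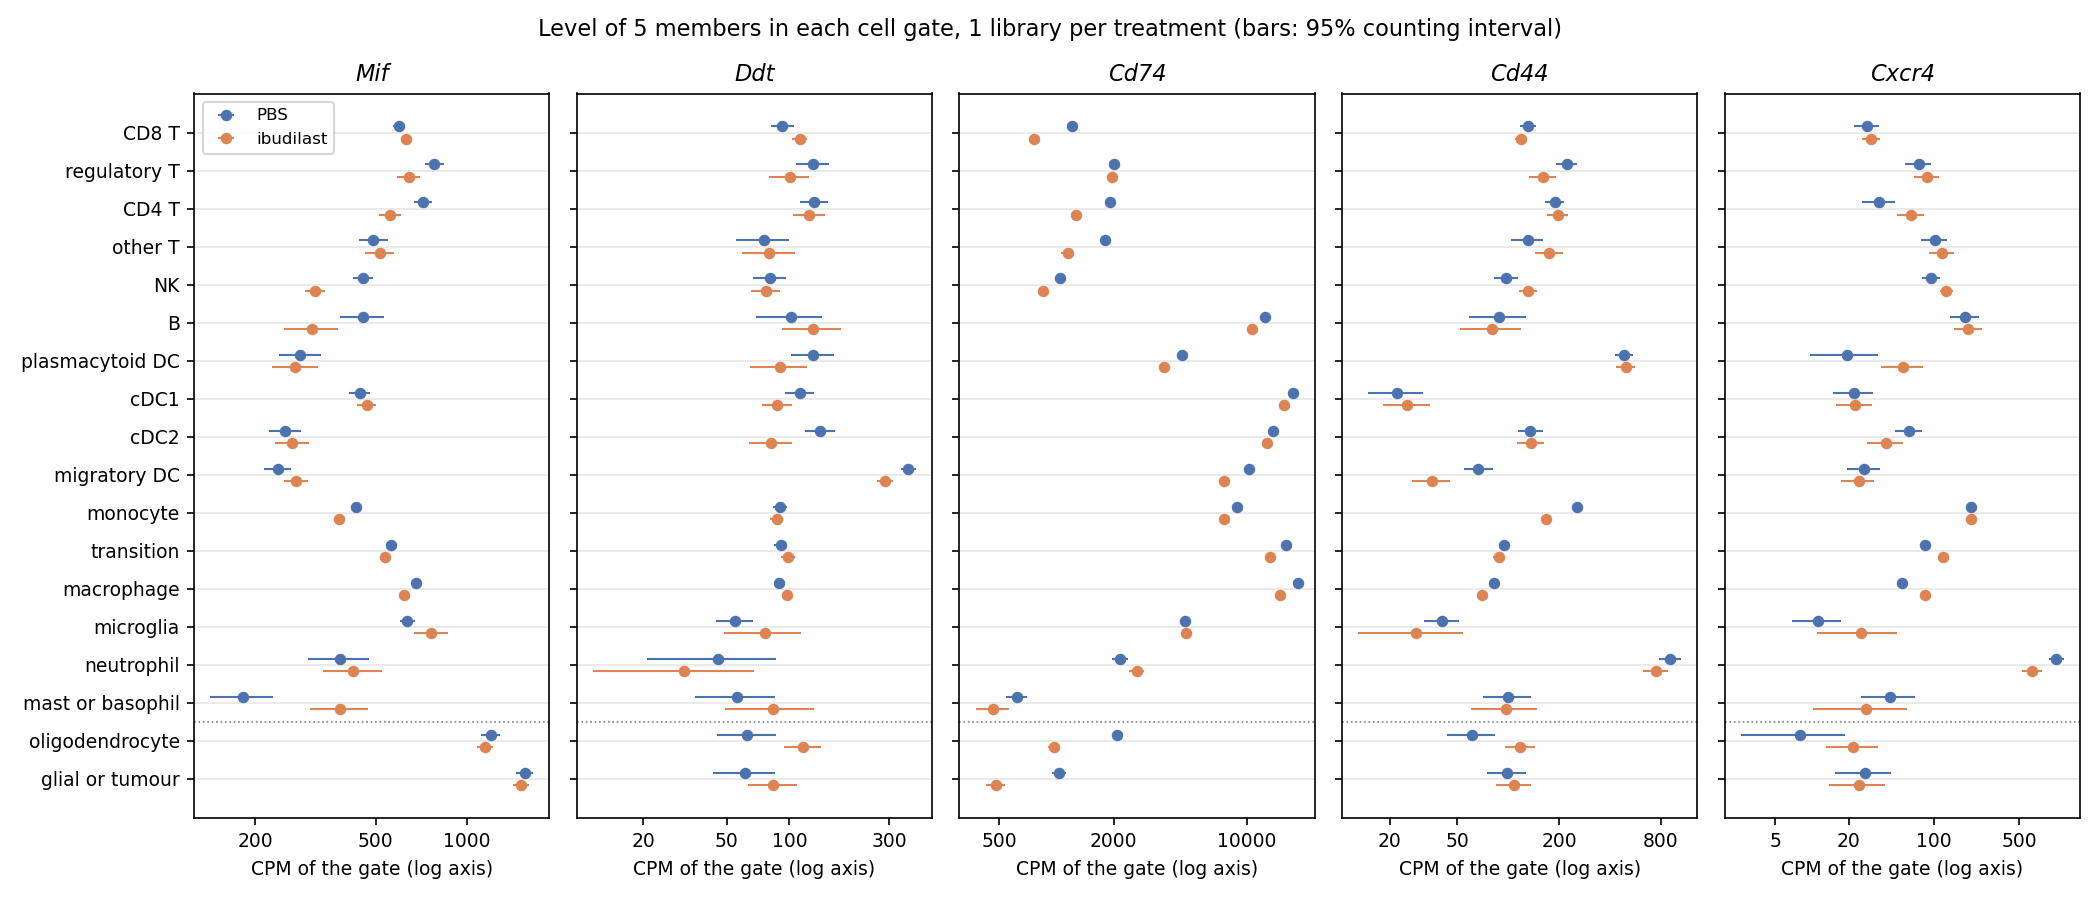
Level of Mif, Ddt, Cd74, Cd44 and Cxcr4 (CPM, log axis, a different range in each panel) in 16 immune gates and, under the dotted line, the oligodendrocyte and glial or tumour gates. Points are the PBS (blue) and ibudilast (orange) libraries and bars are 95% counting intervals; Mif spanned 182 to 782 CPM over the immune gates of the PBS library, and Cd74 spanned 619 to 18667 CPM.

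Over all immune gates pooled, Mif stood at 608 CPM with PBS and 508 CPM with ibudilast, a ratio of 0.836 (0.823 to 0.850). The macrophage gate, where Mif was comparatively high, held a smaller share of the ibudilast library. With the makeup of gates fixed to that of the PBS library the ratio was 0.926, and with that of the ibudilast library 0.931. Within the macrophage gate Mif was 677 CPM (670 to 685) with PBS and 619 CPM (606 to 633) with ibudilast, a ratio of 0.914 (0.892 to 0.936). Transition cells had a ratio of 0.950 (0.910 to 0.992) and monocytes 0.877 (0.836 to 0.921), both inside the fold.

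Lymphoid gates went in different directions. Mif was lower with ibudilast in NK cells (455 against 316 CPM, ratio 0.694, 0.622 to 0.774), in CD4 T cells (716 against 557 CPM, 0.778) and in B cells (453 against 308 CPM, 0.679). These were the 3 of 16 gates where Mif was at least 20% lower. Of all genes with 100 UMIs, 13.1% were at least 20% lower in the NK gate, 10.4% in the CD4 T gate and 13.4% in the B gate. The B value rests on 143 and 95 UMIs, and it was 1.11 after each cell was thinned to 2000 UMIs. Over all settings tried the NK ratio ran from 0.665 to 0.772 and the CD4 T ratio from 0.753 to 0.831. CD8 T cells did not share the lower level, with 597 and 629 CPM and a ratio of 1.05 (0.991 to 1.12). Of the 16 gates, the mast or basophil gate was the 1 where Mif was at least 25% higher (182 against 380 CPM, ratio 2.09), as were 19.7% of genes there, and 1 cell gave 35.4% of its ibudilast Mif UMIs. Haemoglobin stood at 17.9 and 17750 CPM in this gate, and without cells with a haemoglobin UMI the Mif ratio was 0.917.

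The share of cells with a Mif UMI gave a similar picture at matched depth. At a fixed 2000 UMIs per cell, 61.0% of PBS macrophages (1839 of 3015, exact interval 59.2 to 62.7%) and 58.8% of ibudilast macrophages (645 of 1097, 55.8 to 61.7%) had one. Before thinning the shares were 96.4% and 92.9%. In monocytes the thinned shares were 44.0% and 43.6%, and in NK cells 46.7% and 40.1%. In migratory DCs they were 30.7% and 20.1%, although the summed level there was higher with ibudilast (237 against 273 CPM). 1 migratory DC gave 25.6% of that gate's ibudilast Mif UMIs, and the ratio was 0.797 in thinned cells.

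Sub-gates of the macrophage gate differed in Mif by larger ratios than the libraries did. Sub-gates were set at 10 UMIs or more over a pair of genes, with both present. Cells with Arg1 (arginase) and Mmp12 (macrophage elastase) had 1575 CPM of Mif (1513 to 1640; 73 cells) in the PBS library, against 648 CPM in the other macrophages, a ratio of 2.43 (2.33 to 2.54). In the ibudilast library 11 such cells had 1669 CPM (1480 to 1875) against 605 CPM, a ratio of 2.76. There 1 cell gave 23.0% of their 283 Mif UMIs, so that interval is too tight. Of all genes, 17.6% and 35.5% were at least 25% higher inside this sub-gate in the PBS and ibudilast libraries. Cells with Gpnmb and Fabp5, genes of lipid-laden macrophages, had 849 against 657 CPM with PBS and 819 against 588 CPM with ibudilast, where 12.9% and 15.1% of all genes were at least 25% higher. Cells with Cxcl9 and Cxcl10, interferon-induced chemokines, stood lower, at 594 against 751 CPM and 536 against 670 CPM, where 8.58% and 10.5% of all genes were at least 20% lower.

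The sub-gates had deeper cells than the rest, with medians of 20224 against 14891 UMIs for Arg1 with Mmp12 in the PBS library. In cells thinned to 2000 UMIs the Mif ratio of that sub-gate was 2.73 with PBS and 2.26 with ibudilast. The Arg1 with Mmp12 cells were 2.42% of PBS macrophages and 0.995% of ibudilast macrophages, and they held 7.40% and 3.49% of the gate's Mif UMIs. Between libraries, Mif inside the sub-gate had a ratio of 1.06 (0.933 to 1.199), and outside it 0.934 (0.911 to 0.958).

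**Figure D2:**
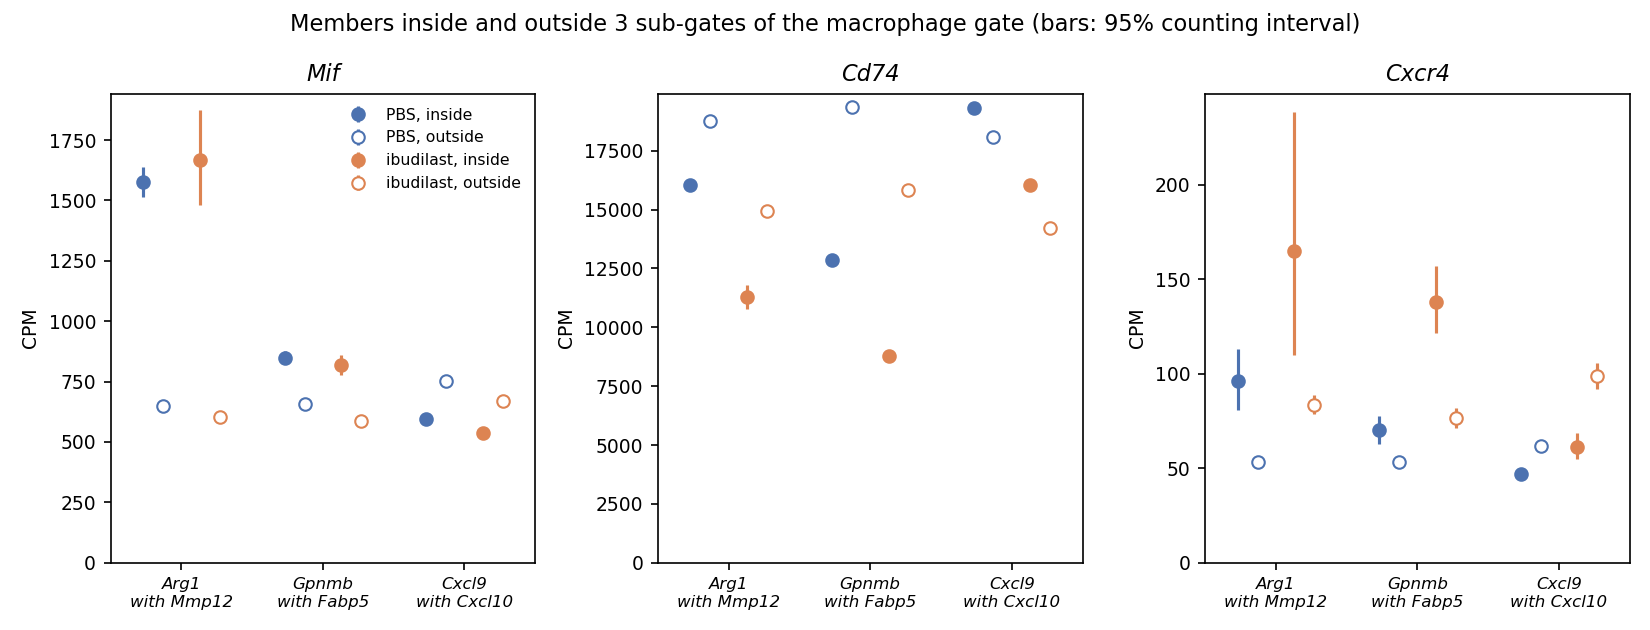
Level (CPM) of Mif, Cd74 and Cxcr4 in macrophage-gated cells inside (filled) and outside (open) 3 sub-gates, for the PBS (blue) and ibudilast (orange) libraries, with 95% counting intervals. Mif reached 1575 and 1669 CPM in cells with Arg1 and Mmp12, whereas Cd74 was lowest in cells with Gpnmb and Fabp5, at 12843 and 8791 CPM.

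Mif also differed between cycling and other T cells. Cycling cells were those with at least 2 UMIs over Mki67, Top2a and 6 other cell-cycle genes after thinning, and the other cells had none. Over the 4 T gates, Mif was 813 CPM in 104 cycling cells and 565 CPM in 382 others with PBS, a ratio of 1.44 (1.34 to 1.55). With ibudilast it was 795 CPM in 142 and 487 CPM in 486 cells, a ratio of 1.63 (1.53 to 1.74). In these comparisons 26.6% and 26.8% of all genes were at least 25% higher in the cycling cells. Cycling macrophages went the other way, at 631 against 695 CPM with PBS and 534 against 638 CPM with ibudilast. The cycling T cells were deeper, with medians of 13990 against 6941 UMIs in the PBS library and 14333 against 6857 in the ibudilast library. At 4 UMIs or more over the cell-cycle genes the T cell ratios were 1.23 and 1.64. How the 4 T gates were divided between cycling and other cells was not compared.

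Other genes resemble Mif in sequence. 8 other GENCODE genes, mostly processed pseudogenes, had a transcript at least 90% identical to Mif over at least 100 bases. 1 of them, Gm16302, is listed in the files, with 5 PBS and 4 ibudilast UMIs over all barcodes, against 65776 and 39893 for Mif in kept cells. For Ddt there was 1 such gene, Gm20441, listed with no UMI in either library. It overlaps Ddt on the same strand, so it is not a separate copy elsewhere in the genome. For Cxcr2 there were 311, of which 260 are in the files. They include genes of other families that match over a short stretch, such as 190 bases. The number is therefore not a count of Cxcr2 homologues. The sources do not say how reads that match several genes were counted, so the Mif, Ddt and Cxcr2 counts are uncertain to that extent.

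Ddt had a different high point. Migratory DCs, which have matured and carry the lymph-node homing receptor Ccr7, had 372 CPM (342 to 403) with PBS and 286 CPM (262 to 312) with ibudilast. In both libraries this was the highest of the 16 gates, and its interval did not overlap that of the next gate. The next gate was cDC2 at 140 CPM with PBS and B cells at 130 CPM with ibudilast. Neutrophils were lowest, at 45.6 and 31.2 CPM from 9 and 6 UMIs. Mif was at 237 and 273 CPM in the migratory DC gate, among its lower levels, so the homologues did not follow each other there. Over the 16 gates the log2 levels of Mif and Ddt had a Pearson r of −0.18 with PBS and −0.17 with ibudilast, a description over gates of the same libraries.

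Ddt was at least 20% lower with ibudilast in 5 of the 12 gates with 100 UMIs. These were the 4 dendritic gates, with ratios of 0.582 in cDC2, 0.689 in plasmacytoid DCs, 0.769 in migratory DCs and 0.778 in cDC1, and the regulatory T gate at 0.775. Of all genes, 10.9%, 9.68%, 8.38%, 7.96% and 12.4% were at least 20% lower in those gates, in the same order. The intervals of the plasmacytoid DC and regulatory T ratios included 1. The migratory DC ratio was 0.816 to 0.931 under 4 of the alternative settings, and so inside the fold. The cDC2 ratio ran from 0.400 to 0.871 over the settings, with 34.0% of the PBS UMIs from 1 cell, and the cDC1 ratio from 0.699 to 0.974. In 1 gate, microglia, Ddt was at least 25% higher (ratio 1.39, 0.848 to 2.19, from 97 and 24 UMIs), where 13.2% of genes were. Macrophages had 88.8 and 97.5 CPM, a ratio of 1.10 (1.03 to 1.17), CD8 T cells 92.5 and 112 CPM, a ratio of 1.21, and monocytes 90.5 and 87.1 CPM, a ratio of 0.963. Pooled over the immune gates the ratio was 1.07 (1.03 to 1.11), and 1.04 and 0.988 with the makeup fixed to that of the PBS and ibudilast library.

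Cd74 had a steep order across gates that was nearly the same in both libraries (Spearman rho 0.99). In the PBS library macrophages led at 18667 CPM, followed by cDC1 (17570), transition cells (16118), cDC2 (13686), B cells (12527), migratory DCs (10315) and monocytes (8927). Microglia and plasmacytoid DCs were lower, at 4733 and 4598 CPM. The T gates had 1212 to 2014 CPM, NK cells 1049 CPM and mast cells or basophils 619 CPM, the lowest level. Gates that present antigen on class II molecules were therefore the high ones, and for 4 of the 15 pairs of gates next to each other in the order the interval of the ratio included 1. In the ibudilast library cDC1 came first at 15709 CPM and macrophages next at 14913 CPM.

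The ibudilast library had less Cd74 than the PBS library in most gates. The whole interval of the ratio lay below 1 in 13 of 16 gates, above 1 in the neutrophil gate and included 1 in the regulatory T and microglia gates. The share of all genes with an interval below 1 was not counted. Cd74 had up to 1087440 UMIs in a gate (macrophages), so even small differences can lie outside such intervals. Outside the immune gates the ratio was lower still, at 0.465 in the oligodendrocyte gate and 0.464 in the glial or tumour gate. The NK ratio of 0.811 was 1.12 with doublets kept. In 7 of the 16 gates Cd74 was at least 20% lower and in 0 at least 25% higher. The 7 were CD8 T (0.634), CD4 T (0.657), other T (0.637), plasmacytoid DC (0.798), migratory DC (0.737), macrophage (0.799) and mast or basophil (0.749). Of all genes, 5.26%, 10.4%, 11.2%, 9.68%, 8.38%, 4.56% and 22.1% were at least 20% lower in these gates, in the same order. In macrophages the ratio was 0.799 (0.795 to 0.803). This value sits at the edge of the fold, and it was between 0.801 and 0.806 under 4 alternative settings and as low as 0.765 in thinned cells. In this gate 4.56% of 10405 genes were at least 20% lower and 8.79% at least 25% higher, and of the 5 member genes with 100 UMIs, Cd74 was on the lower and Cxcr4 on the higher side. Transition cells had 0.827, monocytes 0.856, B cells 0.854, cDC1 0.894 and cDC2 0.939. Migratory DCs had 10315 and 7607 CPM, a ratio of 0.737 (0.721 to 0.754), and the macrophage markers summed there to 989 and 614 CPM, whose part in the ratio was not tested.

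The pooled ratio was further from 1 than most of these. Over all immune gates Cd74 was 15094 CPM with PBS and 9576 CPM with ibudilast, a ratio of 0.634, and 9.02% of genes were at least 20% lower. With fixed makeup the ratio was 0.810 at that of the PBS library and 0.819 at that of the ibudilast library. The macrophage gate held 60.3% of all Cd74 UMIs of kept cells with PBS and 29.8% with ibudilast.

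Nearly every macrophage carried Cd74. In thinned cells the share with a UMI was 99.4% for PBS and 98.7% for ibudilast macrophages, so the difference lay in the amount per cell. The median macrophage had 34 Cd74 UMIs of 2000 with PBS and 24 with ibudilast. In transition cells the medians were 30 and 23, in cDC1 34 and 30, in B cells 27 and 22, and in monocytes 10 in both libraries.

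Low Cd74 counts in T and NK cells need to be read against gates that should lack the gene. A Cd74 UMI was found in 71.2% of thinned CD8 T cells with PBS and 50.7% with ibudilast, with a median of 1 UMI in each. In mast cells or basophils the shares were 62.1% and 50%, and in the oligodendrocyte gate 65.2% and 46.9%. The CD8 T shares are therefore near this background. The macrophage markers C1qa, C1qb, C1qc, Ms4a7 and Trem2 summed to 1150 and 997 CPM in the CD8 T gate, against 22468 and 23361 CPM in macrophages, and none of the 5 was at 0. The Cd74 ratios of 0.634 in CD8 T, 0.657 in CD4 T and 0.637 in other T cells stand beside that level, and their part in it was not tested. With the monocyte and macrophage minima set per 10000 UMIs the other T ratio was 1.12. Over all settings the CD4 T ratio ran from 0.444 to 0.838. Neutrophils had 2166 and 2648 CPM with macrophage markers at 3204 and 1551 CPM, and 1 cell gave 44.0% of their ibudilast Cd74 UMIs. Their ratio of 1.22 was 0.745 with each cell weighted alike and ran from 0.398 to 2.002 over all settings.

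The genes most like Cd74 over the 16 gates were the class II genes H2-Aa (r = 0.996 with PBS), H2-Eb1 (0.987) and H2-Ab1 (0.981), out of 6288 candidates. These genes encode the chains that CD74 escorts. In macrophages, transition cells, monocytes and cDC1 their ratios were closer to 1 than that of Cd74. In macrophages the ratio was 0.882 (0.877 to 0.888) for H2-Aa, 0.918 for H2-Eb1 and 0.957 (0.952 to 0.963) for H2-Ab1, all above the Cd74 interval. In cDC1 the 3 genes were at 1.02 to 1.05, whereas Cd74 was at 0.894. In migratory DCs they were at 0.731 to 0.828, around the Cd74 value of 0.737. In monocytes they were at 0.942 to 0.973 and Cd74 at 0.856.

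Within macrophages Cd74 was lowest where lipid-handling genes were high. Cells with Gpnmb and Fabp5 had 12843 CPM against 19354 CPM in the others with PBS (ratio 0.664), and 8791 against 15852 CPM with ibudilast (ratio 0.555). Of all genes, 18% and 21.6% were at least 20% lower inside this sub-gate. Cells with Cxcl9 and Cxcl10 had slightly more, at 19323 against 18086 CPM and 16058 against 14210 CPM. The library difference was present on both sides of each sub-gate. Its ratio was 0.685 inside and 0.819 outside the Gpnmb with Fabp5 cells, and 0.831 inside and 0.786 outside the Cxcl9 with Cxcl10 cells.

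**Figure D3:**
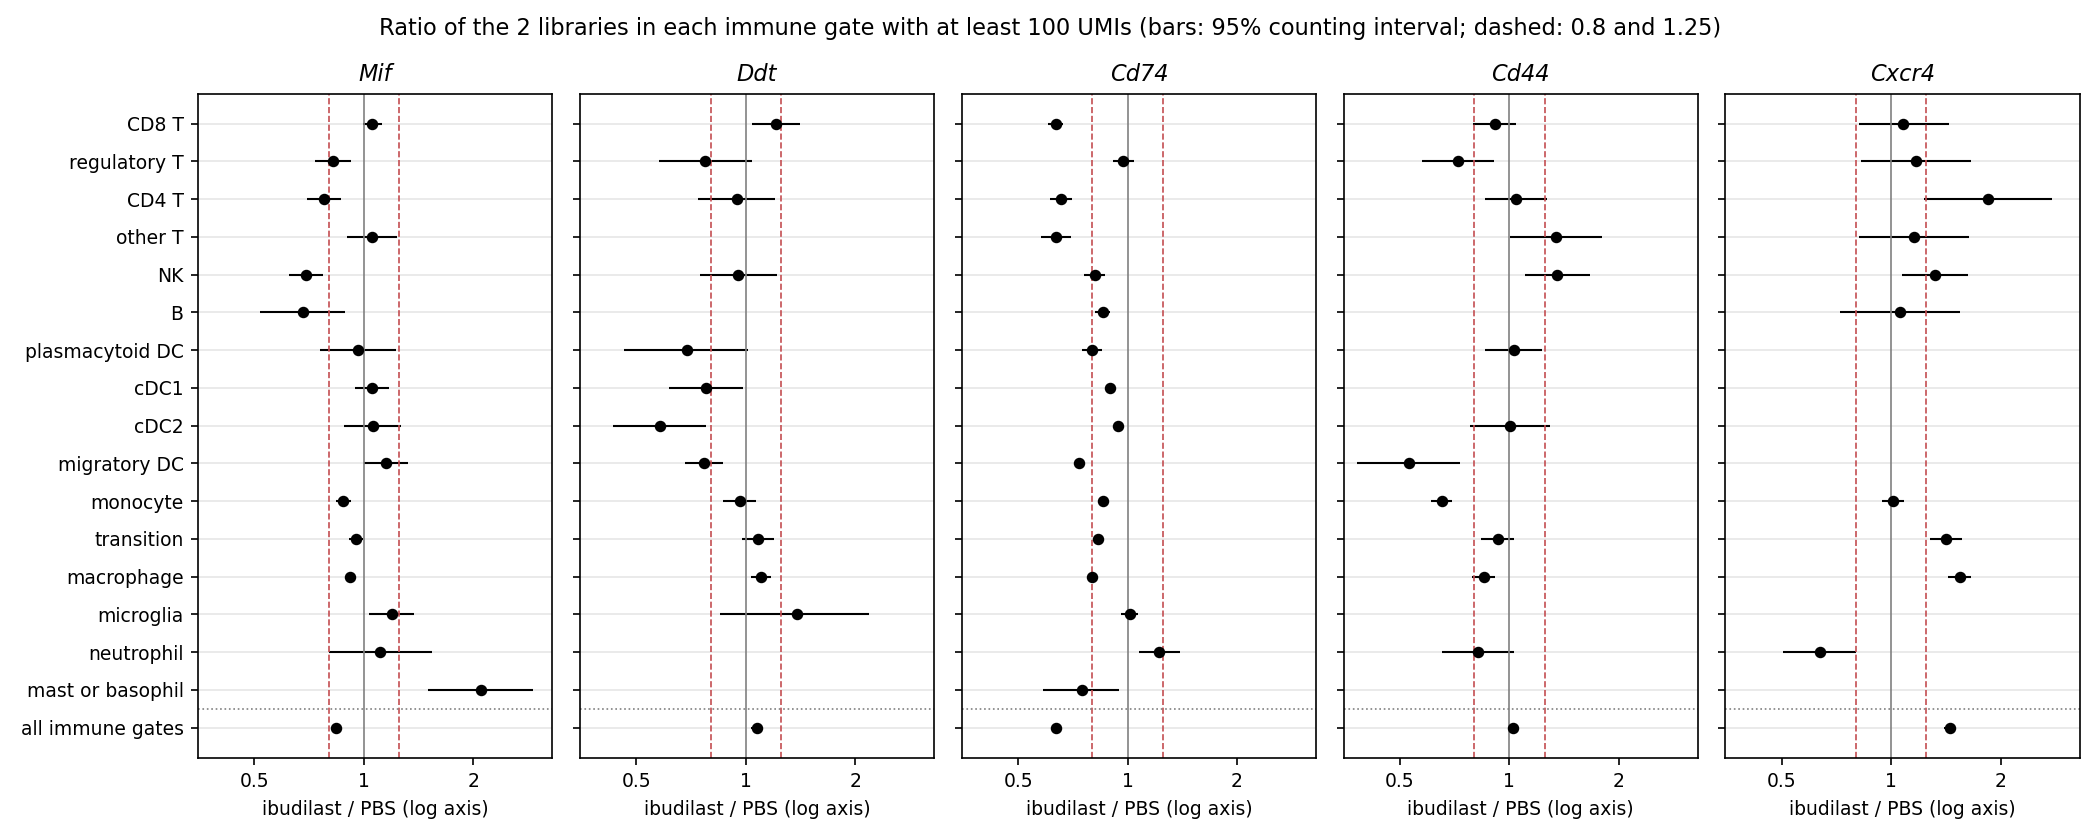
Ratio of ibudilast to PBS (log axis) for 5 genes in each immune gate with at least 100 UMIs and over all immune gates, with 95% counting intervals; the dashed lines mark the levels at least 20% lower and at least 25% higher. The Cd74 interval lies below 1 in 13 gates, and the share of all genes with such an interval was not counted. Cxcr4 lies to the right of the upper line in macrophages (1.54) and transition cells (1.41) and left of the lower line in neutrophils (0.635).

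Cd44, a hyaluronan and osteopontin receptor that serves CD74 as its signalling partner, was highest in neutrophils at 906 CPM (778 to 1049) with PBS and 744 CPM (627 to 876) with ibudilast. Plasmacytoid DCs came next in both libraries, at 484 and 496 CPM, and their intervals lay apart from those of the gates on either side. Monocytes had 256 CPM with PBS, regulatory T cells 222 CPM and CD4 T cells 189 CPM. Macrophages had 82.8 CPM and cDC1 22.1 CPM, the lowest level. Cd44 and Cd74 were therefore high in different gates, with r over gates of −0.34 and −0.37.

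Monocytes stood out in the library comparison. Their Cd44 was 256 CPM (245 to 267) with PBS and 167 CPM (158 to 175) with ibudilast, a ratio of 0.651 (0.608 to 0.697), where 7.46% of genes were at least 20% lower. Thinned shares of monocytes with a UMI were 30.4% and 20.9%. Over all settings tried, this ratio ran from 0.573 to 0.736. Macrophages had 82.8 and 70.4 CPM, a ratio of 0.850 (0.790 to 0.913), and transition cells 95.3 and 88.5 CPM, a ratio of 0.928 whose interval included 1. Migratory DCs were at 0.529 from 105 and 63 UMIs, where 8.38% of genes were at least 20% lower, and regulatory T cells at 0.723, where 12.4% were.

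NK cells had more Cd44 with ibudilast (97.7 against 132 CPM, ratio 1.35, 1.10 to 1.66), where 15.7% of genes were at least 25% higher, and so had other T cells (131 against 175 CPM, 1.34), where 12.3% were. Over all immune gates the ratio was 1.02 (0.989 to 1.06), but with fixed makeup it was 0.836 and 0.821. The pooled level thus stood beside lower levels within the large myeloid gates. In the oligodendrocyte gate 17.4% (4 of 23) and 22.4% (11 of 49) of thinned cells had a Cd44 UMI, at or above the thinned macrophage shares of 15.4% and 12.5%. The median depths were 15620 and 2340 UMIs in the oligodendrocyte gate and 15030 and 10637 UMIs in macrophages. The few oligodendrocyte-gated cells give wide intervals (4.95 to 38.8% and 11.8 to 36.6%). At the same thinned depth cDC1 had lower Cd44 shares than macrophages, at 3.08% (0.375 to 10.7%) and 4.76% (1.31 to 11.7%). These gates thus set no single background level for Cd44, and how far free RNA enters the macrophage shares was not tested.

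Cells with both receptor partners were counted in thinned data. A Cd74 and a Cd44 UMI occurred together in 23.9% of PBS monocytes (210 of 877, 21.2 to 26.9%) and in 16.02% of ibudilast monocytes (182 of 1136, 13.9 to 18.3%). The product of the separate shares was 27.3% and 18.4%. In macrophages 15.4% and 12.1% had both, against products of 15.3% and 12.3%. Since nearly all macrophages had Cd74, the share with both followed Cd44. Neutrophils had both in 60.0% and 45.7% of 45 and 35 cells. For Cd74 with Cxcr4 the shares were 27.6% in monocytes of both libraries, and 10.2% and 14.8% in macrophages.

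Cxcr4, the receptor of Cxcl12 that retains cells in the bone marrow, was also highest in neutrophils, at 1007 CPM (872 to 1157) with PBS and 640 CPM (532 to 764) with ibudilast. Monocytes (200 and 202 CPM) and B cells (181 and 191 CPM) followed in both libraries, with intervals that overlapped each other. Microglia were lowest with PBS at 11.3 CPM and cDC1 with ibudilast at 22.5 CPM. The neutrophil ratio was 0.635 (0.503 to 0.7995), where 22% of genes were at least 20% lower, and thinned shares were 86.7% (39 of 45) and 65.7% (23 of 35). Of the 10 gates with 100 UMIs, Cxcr4 was at least 20% lower in this 1 and at least 25% higher in 4, namely macrophages, transition cells, CD4 T cells and NK cells.

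In macrophages Cxcr4 was higher with ibudilast, at 54.9 CPM (52.8 to 57.1) and 84.6 CPM (79.7 to 89.8), a ratio of 1.54 (1.44 to 1.65), where 8.79% of genes were at least 25% higher. Over all settings this ratio ran from 1.496 to 1.65. The share of macrophages with a UMI at matched depth was 10.2% (9.16 to 11.4%) and 14.9% (12.9 to 17.2%). Transition cells had 84.1 and 119 CPM, a ratio of 1.41 (1.28 to 1.56), where 7.32% of genes were at least 25% higher. Monocytes did not differ in this way, with a ratio of 1.01 (0.942 to 1.08). Monocyte markers were also higher in the ibudilast macrophages, at 252 and 456 CPM summed over Ly6c2, Plac8, Ccr2, Vcan and Chil3, and in transition cells, at 3199 and 4072 CPM. Their part in the Cxcr4 ratio was not tested.

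In summed UMIs the Cxcr4 difference was present inside and outside each macrophage sub-gate. The ratios were 1.97 (1.67 to 2.33) in Gpnmb with Fabp5 cells and 1.44 outside them. In Arg1 with Mmp12 cells the ratio was 1.72 (1.10 to 2.59), from 28 UMIs in 11 ibudilast cells. There 1 cell gave 28.6% of the ibudilast UMIs. After thinning, none of these ibudilast cells had a Cxcr4 UMI, against 15.1% with PBS. Within a library, Cxcr4 was higher in Gpnmb with Fabp5 cells (70.0 against 53.1 CPM with PBS, 138 against 76.4 CPM with ibudilast), where 12.9% and 15.1% of all genes were at least 25% higher. It was lower in Cxcl9 with Cxcl10 cells (46.9 against 62.0 CPM with PBS, 61.5 against 98.9 CPM with ibudilast), where 8.58% and 10.5% were at least 20% lower. Cycling macrophages had less as well, at 40.6 against 58.9 CPM and 45.4 against 93.8 CPM, where 16.4% and 16.1% of genes were at least 20% lower. Cycling T cells had 21.9 against 61.1 CPM and 18.1 against 63.5 CPM, where 23.2% and 27.8% were. Cxcr4 and Mif thus went in opposite directions between cycling and other T cells. Cd74 was also lower in the cycling T cells, at 739 against 2084 CPM with PBS and 629 against 1185 CPM with ibudilast. The 4 T gates were pooled here, and the part of their makeup or of RNA from other cells was not tested.

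Among lymphoid gates CD4 T cells had 35.4 and 65.3 CPM of Cxcr4 from 43 and 65 UMIs, a ratio of 1.84 (1.23 to 2.77), where 9.83% of genes were at least 25% higher. NK cells had 95.6 and 126 CPM, a ratio of 1.32 beside 15.7% of genes at least 25% higher, and this ratio was 0.855 in thinned cells and 0.959 with each cell weighted alike. CD8 T cells were low in both libraries, at 28.4 and 30.6 CPM. Pooled over the immune gates Cxcr4 was 72.9 and 106 CPM, a ratio of 1.45 (1.40 to 1.51), where 16.9% of genes were at least 25% higher. With fixed makeup the ratio was 1.31 and 1.17. In the oligodendrocyte gate 0 of 23 cells with PBS and 8.16% of 49 cells with ibudilast had a Cxcr4 UMI after thinning, and in microglia 0 of 104 and 4.35%.

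Cxcr2, the receptor of the neutrophil chemokines Cxcl1 and Cxcl2, had its highest level in neutrophils. The neutrophil gate held 107 of 233 UMIs in the PBS library (45.9%) and 89 of 168 in the ibudilast library (53.0%). Macrophages held 29 and 1 UMIs, monocytes 17 and 4, cells of several gates 22 and 52 and cells of no gate 29 and 5. Reads from the many genes that share sequence with Cxcr2 could enter these low counts, which was not tested. The neutrophil level was 542 CPM (444 to 654) with PBS and 463 CPM (372 to 570) with ibudilast, a ratio of 0.855 (0.638 to 1.14), so a difference was not detectable at this depth. After thinning 53.3% (24 of 45) and 57.1% (20 of 35) of neutrophils had a UMI. In the B and the 4 T gates 0 to 2 UMIs were found per gate and library. The mast or basophil gate had 16 PBS UMIs in 7 of 74 cells and none with ibudilast, which allows up to 13.9 CPM by the limit of 3 counts. Neutrophils were therefore the gate with the highest Cxcr2, Cxcr4 and Cd44.

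Ackr3, an atypical receptor that binds Cxcl12 without coupling to G proteins, had 88 and 89 UMIs in all kept cells. Most of those in gated cells lay outside the immune gates. The glial or tumour gate had 17 and 51 UMIs, at 29.0 CPM (16.9 to 46.5) and 77.7 CPM (57.8 to 102), with 58.8% of the PBS UMIs from 1 cell. The 4 T gates had 2 PBS and no ibudilast UMIs, and the neutrophil gate had none, which allows up to 15.2 and 15.6 CPM. The 11 UMIs of ibudilast migratory DCs came from 1 cell. No ratio in an immune gate rested on 100 UMIs.

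**Figure D4:**
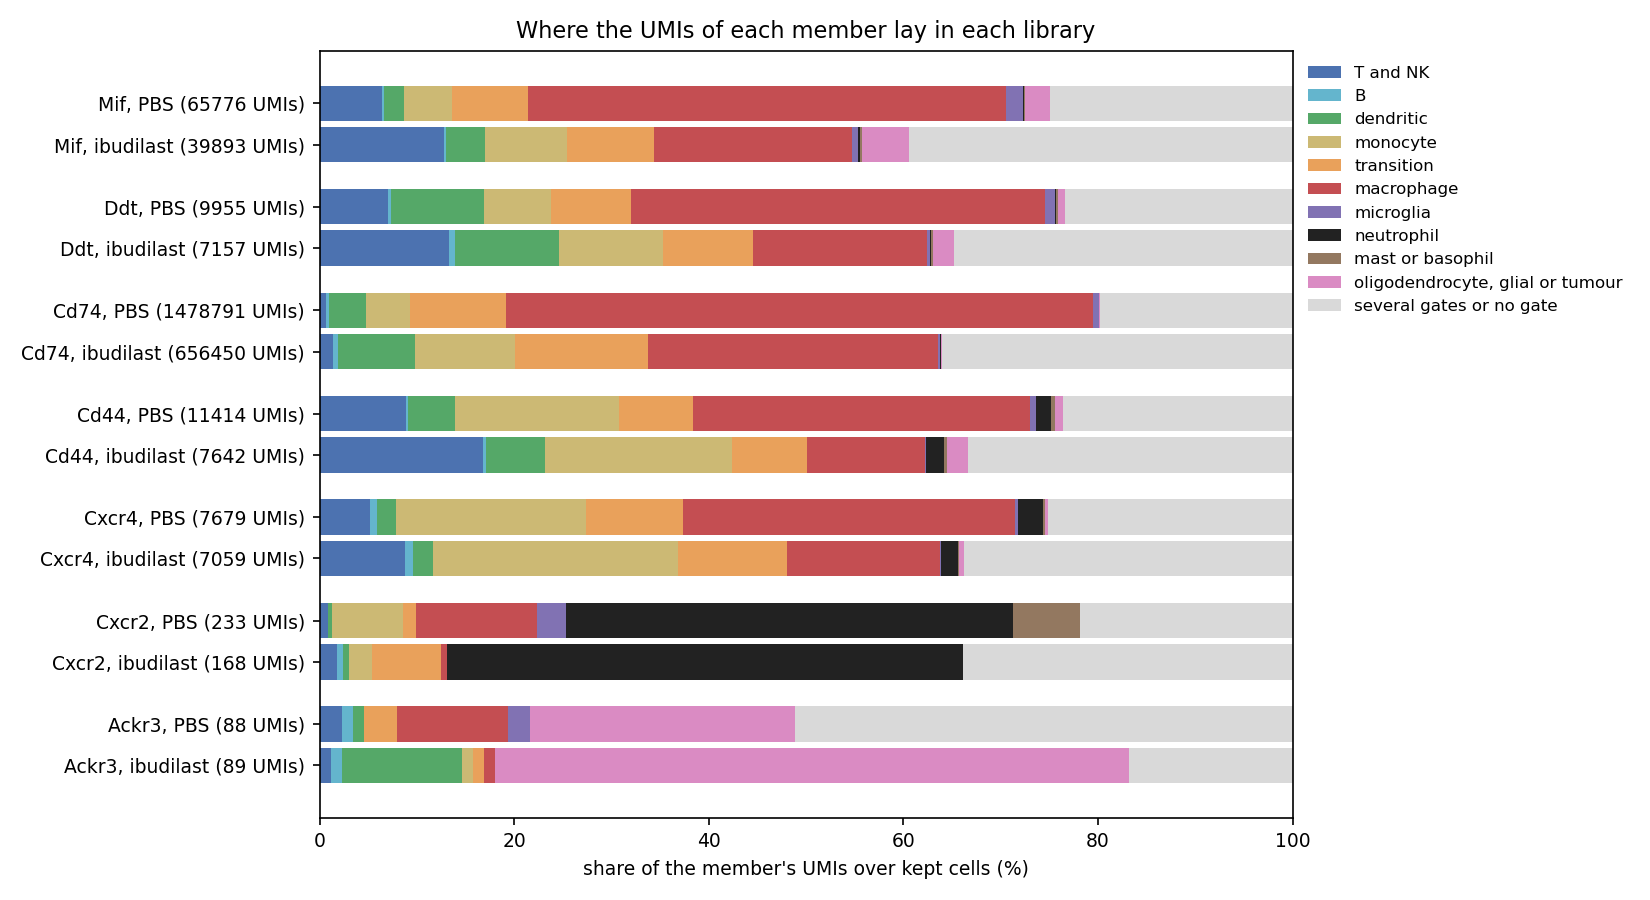
Share (%) of each gene's UMIs over kept cells that lay in each group of gates, with the total number of UMIs in brackets and 1 bar per library. The macrophage share (red) is smaller in the ibudilast library for all 7 genes. So is the macrophage share of the immune-gate UMIs of all genes together, at 60.9% with PBS and 29.97% with ibudilast. Neutrophils (black) hold 45.9% and 53.0% of Cxcr2, and oligodendrocyte, glial or tumour gates (pink) hold most gated Ackr3 UMIs.

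Genes that act with MIF were examined as a list of 37, ordered by role. In macrophages 33 had at least 100 UMIs, of which 1 was at least 25% higher and 4 at least 20% lower, shares of 3.03% and 12.1% against 8.79% and 4.56% of all genes. The median log2 ratio of the list was −0.046, beside 0.031 for all genes tested. The genes given here that bind MIF, stabilise it or help its release were inside the fold, at 0.810 to 1.22. Cops5, which encodes the MIF-binding COP9 subunit, had a ratio of 0.968, the peroxiredoxin gene Prdx1 0.935 and the chaperone gene Hsp90aa1 0.877. Hsp90ab1, whose product protects MIF from degradation in tumour cells, was lowest of these at 0.810 (2566 against 2079 CPM). Abca1, a transporter linked to MIF release, was at 1.22.

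Candidate regulators of Mif transcription were inside the fold in macrophages. Hif1a was at 0.924, Creb1 at 1.06, Sp1 at 0.983 and Uhrf1 at 0.832. In monocytes Hif1a was lower and past the fold, at 216 and 170 CPM, a ratio of 0.790 (0.736 to 0.848). For Cd74, the class II transactivator gene Ciita had 122 and 108 CPM in macrophages, a ratio of 0.890 (0.839 to 0.944), and in transition cells 168 and 124 CPM, a ratio of 0.737. The protease genes that process the invariant chain were at 1.02 (Ctss) and 0.895 (Sppl2a) in macrophages.

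Other ligands of the same receptors held some of the wider differences. Cxcl2, a CXCR2 ligand, was 295 and 188 CPM in macrophages (ratio 0.637, 0.610 to 0.665), 679 and 375 CPM in monocytes (0.553), and 16287 and 8070 CPM in neutrophils (0.495). Cxcl1 was at 0.355 in macrophages from low levels of 4.08 and 1.45 CPM. Spp1, which encodes the CD44 ligand osteopontin, was 587 and 810 CPM in macrophages (1.38), but 770 and 512 CPM in transition cells (0.665) and at 0.729 over all immune gates. Cxcl12, the CXCR4 and ACKR3 ligand, had no UMI in the macrophage gate of either library.

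Of the signal relay genes, Src was at 0.515 (0.433 to 0.608) in macrophages and 0.511 in transition cells, whereas Lyn, Syk, Mapk3, Akt1, Arrb1 and Arrb2 were at 0.945 to 1.03 in macrophages. Ptgs2, the cyclooxygenase gene that MIF signalling is known to raise, was 36.9 and 22.9 CPM in macrophages (0.620, 0.547 to 0.701) and 63.7 and 40.0 CPM in monocytes (0.627). Ccnd1, which encodes cyclin D1, was at 0.840 in macrophages and 0.767 in transition cells. The glucocorticoid receptor gene Nr3c1 and its targets Dusp1 and Tsc22d3 were at 1.02 to 1.11 in macrophages. The list was also counted in other gates. In monocytes 0 of 31 genes were at least 25% higher and 3 at least 20% lower (Hif1a, Cxcl2 and Ptgs2), beside 7.07% and 7.46% of all genes. In transition cells 1 of 32 was higher, Arrb1 at 1.32 (0.993 to 1.76), and 4 were lower (Ciita, Spp1, Src and Ccnd1), beside 7.32% and 8.37%. CD8 T cells had 1 of 25 on either side, beside 9.29% and 5.26%. The genes were Cxcl2 at 11.2 and 37.4 CPM (3.34) and Spp1 at 102 and 70.3 CPM (0.693). The median CD8 T cell also held 9 and 6 UMIs of the macrophage markers, and the part of foreign RNA in these ratios was not tested. In NK cells 7 of 22 were higher and 2 lower, beside 15.7% and 13.1% of all genes. The 7 included the kinase genes Syk (31.0 and 46.2 CPM, 1.49) and Lyn (45.1 and 65.5 CPM, 1.45), the receptor gene Nr3c1 (1.45) and its targets Tsc22d3 (284 and 386 CPM, 1.36) and Dusp1 (1.27). Over all immune gates 0 of 34 were higher and 9 lower, beside 16.9% and 9.02%. The makeup of gates differed between the libraries, and this pooled count was not taken at fixed makeup.

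**Figure D5:**
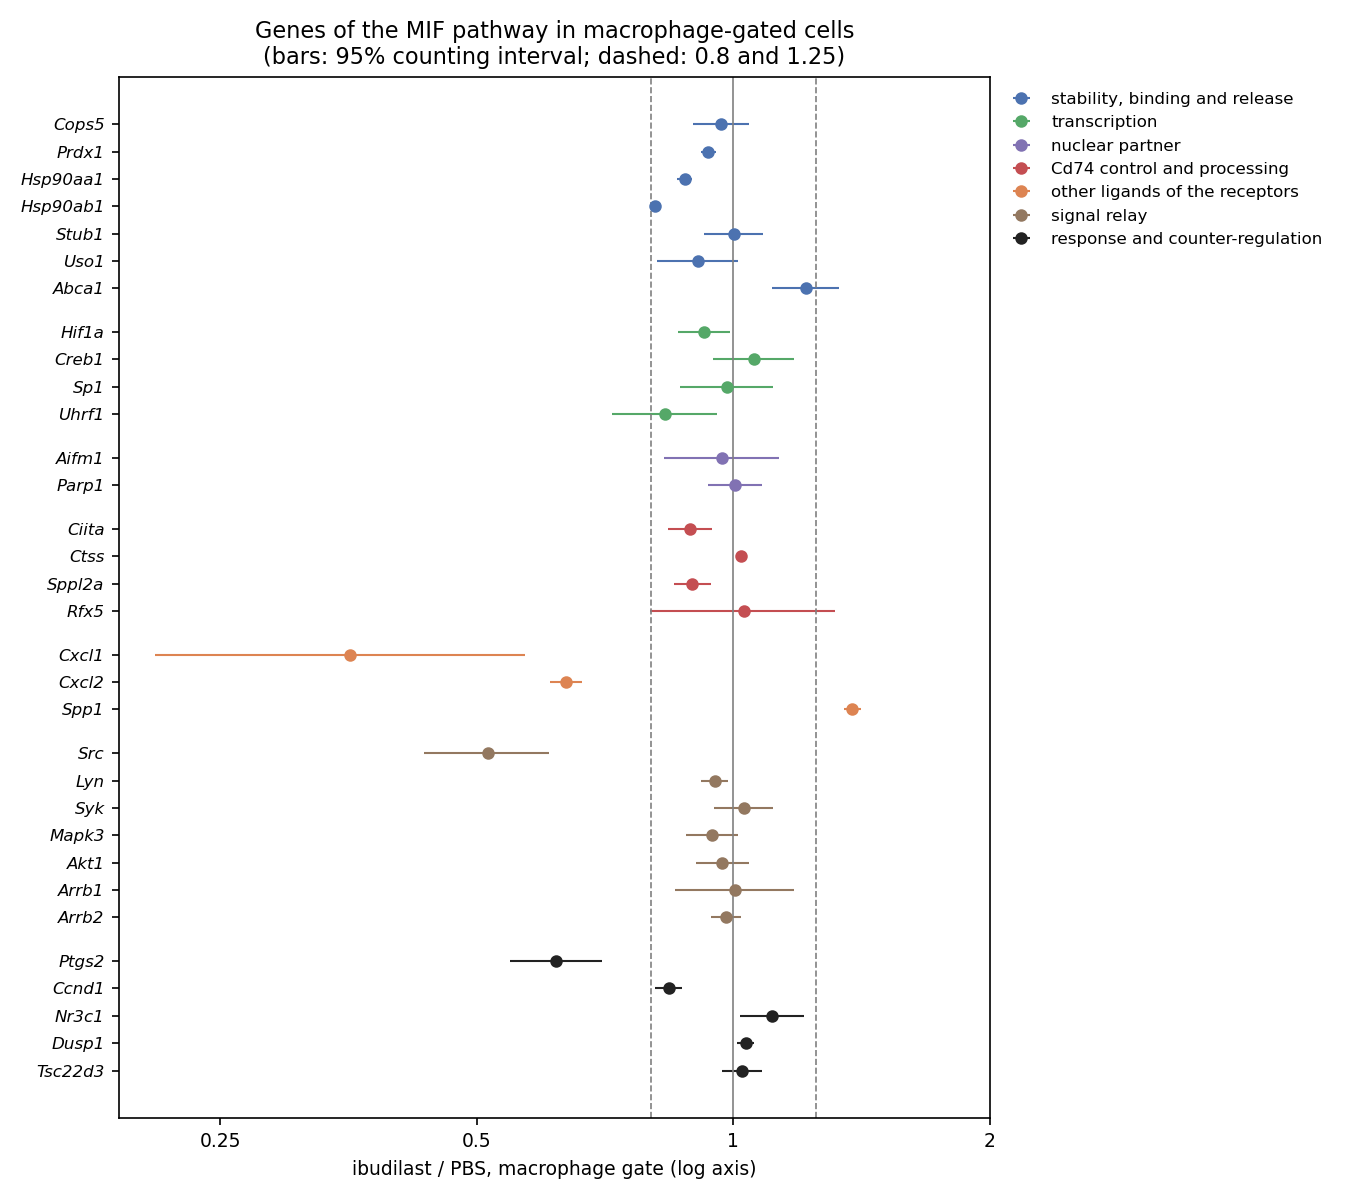
Ratio of ibudilast to PBS (log axis) in macrophage-gated cells for 32 of the listed genes with at least 100 UMIs, coloured by role, with 95% counting intervals and dashed lines at 20% lower and 25% higher. Cxcl1, Cxcl2, Src and Ptgs2 lie left of the lower line and Spp1 (1.38) lies right of the upper line.

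The genes whose pattern over the 16 gates was most like a member's were ranked by Pearson r of log2(CPM + 1) in the PBS library. For Mif they were Aprt (r = 0.918 with PBS, 0.890 with ibudilast), Itgav (0.902 and 0.806) and Rbm28 (0.896 and 0.378). For Ddt they were Smarce1 (0.900 and 0.737), Dnajc10 and Sinhcaf, for Cd44 Pcf11 (0.898 and 0.754), Usp25 and Itsn2, and for Cxcr4 Slfn4 (0.855 and 0.843), Oas3 and Irf2. The points share 1 library and differ in depth, so these values only describe it. Rbm28 and Itsn2 (0.873 and 0.476) show that a high r in one library need not return in the other. With Spearman rho in the PBS library, none of the genes named for Ddt or Cxcr4 was among the top 3. Between members, Cd44 and Cxcr4 had r of 0.58 and 0.65, and Mif and Cd74 0.04 and −0.15.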

How the data were processed

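The deposited values are UMI counts for each gene in each barcode, not normalized. Per the file headers the authors used Cell Ranger 6.1.1, and per the submitters' processing notes the build was mm10. Libraries were made with a 10x Genomics 3′ kit, per the labels' protocols. No label or header says how reads matching several genes were handled.

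Barcodes with fewer than 300 genes, fewer than 500 UMIs or 10% or more mitochondrial UMIs were dropped. Scrublet's automatic threshold marked 0 cells in each library, so the top 6% by doublet score were removed from each (489 and 425 cells). Gates were sets of marker genes with minima in UMIs: T 6 (Cd3d, Cd3e, Cd3g, Trac), NK 4, B 6, plasmacytoid DC 15, cDC1 8, cDC2 4, migratory DC 10, neutrophil 10, mast or basophil 6, monocyte 20 (Ly6c2, Plac8, Ccr2, Vcan, Chil3), macrophage 50 (C1qa, C1qb, C1qc, Ms4a7, Trem2), oligodendrocyte 10 and glial or tumour 8. Microglia needed 6 further UMIs of P2ry12, Sall1 and Sparc and 1 of Tmem119. T cells were split by minima of 2 UMIs over Cd8a and Cd8b1 (CD8 T), 1 of Foxp3 (regulatory T) and 1 of Cd4 (CD4 T). The rest, including cells that passed both the CD8 and the Foxp3 minimum, were called other T. A T cell whose Foxp3 or Cd4 transcripts were missed could therefore fall in another T gate. The minima were set on marker counts alone. Cells near the macrophage minimum (within 10 UMIs above it) were 1.56% and 3.80% of that gate. A lineage cell that also passed the macrophage minimum counted as passing several gates.

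UMIs were summed per gate and library and given as CPM with exact Poisson 95% intervals, ratios with exact conditional binomial intervals, and shares with exact Clopper-Pearson intervals after thinning each cell to 2000 UMIs, which left out 7 PBS and 8 ibudilast macrophages. PCR and cell spread are not in these intervals. The functions were tested on simulated data. Python 3.11.15, scipy 1.17.1 and scanpy 1.11.5 were used. Genes named are the 7 members, the list of 37 (1 of them is counted but not reported here by name), and the 3 genes most like each member with at least 1000 UMIs. The members and lists were chosen with earlier results of these data known. Alternatives were Leiden clusters in place of gates, a stricter cell filter, doublets kept, raised minima, thinning, equal weight per cell, centring and other minimum counts, and, chosen after seeing the data, minima per 10000 UMIs and leaving out cells with a haemoglobin UMI.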

Additional observations from a re-analysis of the deposited data

How the results depend on the processing

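The pooled Mif ratio of 0.836 was 0.853 with monocyte and macrophage minima per 10000 UMIs and 0.809 when centred on the median of all genes. The macrophage Cd74 ratio of 0.799 was 0.784 with clusters in place of gates, 0.806 with raised minima, 0.793 without cells with a haemoglobin UMI, 0.765 in thinned cells, 0.769 with each cell weighted alike and 0.782 centred. Pooled Cd74, at 0.634, ran from 0.608 to 0.650 over the alternatives. Pooled Cd44, at 1.02, was 0.935 in thinned cells and 0.981 with each cell weighted alike. Pooled Cxcr4, at 1.45, was 1.37 with clusters, 1.31 thinned and 1.29 with each cell weighted alike. The number of list genes past the fold in macrophages was 8 in thinned cells in place of 5, and that of all genes 2592 with at least 20 UMIs in place of 1389. Of 29 member ratios past the fold, 4 changed direction under some alternative: Mif in B cells was 1.11 in thinned cells, Mif in mast cells or basophils 0.917 without cells with a haemoglobin UMI, Cd74 in other T cells 1.12 with minima per 10000 UMIs, and Cxcr4 in NK cells 0.855 thinned and 0.959 with each cell weighted alike. Of 44 ratios inside the fold, 25 lay on the other side of 1 under some alternative, among them Cd74 in neutrophils (1.22, from 0.398 to 2.002) and in NK cells (0.811, from 0.576 to 1.12), Mif in migratory DCs (1.15, from 0.795 to 1.16) and in neutrophils (1.11, from 0.880 to 1.28), and Cxcr4 in regulatory T cells (1.17, from 0.606 to 1.499). Thinning leaves fewer UMIs, and the cause of these changes in direction was not tested. Of 73 member ratios, 37 stayed within their counting interval in thinned cells, 51 with each cell weighted alike, 53 without cells with a haemoglobin UMI, 58 with minima per 10000 UMIs, 60 with raised minima, 66 with doublets kept, 67 when centred and 70 under the stricter cell filter, as did 35 of the 47 that clusters gave. Clusters gave no value for the regulatory T, CD4 T, other T, cDC2, transition and microglia gates, since no cluster could be named so. Depth limited Cxcr2 to neutrophils and left no immune ratio for Ackr3. No paired analysis was possible because each group is 1 library and the values come from no test.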
